A study of Homo sapiens with 3 samples.

Results

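VCAN (UniProt accession P13611), SLC7A8 (Q9UHI5), RGMB (Q6NW40) and PRR5L (Q6MZQ0) are 4 genes named by the study of LSD1 inhibition in THP-1 cells, and their RNA was followed here over time. Members were found by name: the 4 rows carrying these accessions, and 23 rows named by transcript identifiers that GENCODE v44 assigns to the same genes. They were 4 accession rows and 23 transcript rows of 213543 features in the count table, of which 73321 were named by protein accessions and 140222 by transcript identifiers. None of the coding transcripts that GENCODE lists for the 4 genes had a transcript row, so the transcript rows held only transcripts without an annotated protein. Values are given for each kind of row apart, and a sum over both is given after them and named as such. Rows under any other accession of these genes were not looked for. The accession row may therefore not hold all coding counts of a gene.

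The samples were THP-1 cells, an MLL-AF9-positive line from a human acute monocytic leukemia that the labels give as WT throughout, and they were measured by RNA-seq. The Control library (0 h) came from cells without the compound, and the others from cells given 0.2 µM GSK-LSD1, an inhibitor of the histone demethylase LSD1, for 8 h or 24 h. There was 1 library for each time point, so no difference has a replicate check and no p-value was computed. No untreated library at 8 h or 24 h was among the samples. Differences from 0 h that come from the compound and from time in culture cannot be told apart. In total 1475938 counts were in the 0 h library, 1310912 in the 8 h library and 1444011 in the 24 h library.

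The 4 genes act in separate processes. VCAN encodes versican, a large chondroitin sulfate proteoglycan of the extracellular matrix that binds hyaluronan and is made by monocytes and macrophages, among other cells. SLC7A8 (LAT2) is the light chain of a neutral amino acid exchanger, RGMB is a membrane-anchored co-receptor for bone morphogenetic proteins (BMPs), and PRR5L binds RICTOR in mTOR complex 2.

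VCAN, the matrix component among the 4, lies on the plus strand of chromosome 5 in hg38 (chr5:83471618-83582303) and has 7 coding transcripts. Its accession row had 7 counts before treatment, 10 after 8 h and 37 after 24 h. As CPM, counts divided by the TMM-scaled library size, these were 4.56, 7.81 and 26.1. The 24 h library was high and the earlier libraries were low, since the 95% Poisson interval at 24 h (18.3 to 35.9 CPM) lay above those at 0 h (1.83 to 9.39) and 8 h (3.75 to 14.4). These intervals, like all others given, cover counting error only.

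At 24 h VCAN was 5.72-fold higher than at 0 h, a log2 ratio of 2.52 with an exact 95% counting interval of 1.33 to 3.93. Between 8 h and 24 h VCAN was 3.34-fold higher, a log2 ratio of 1.74 (0.70 to 2.91). At 8 h the log2 ratio to 0 h was 0.78 (-0.76 to 2.41), and a difference between these neighbouring levels was not detectable at this depth. Ordered by level, VCAN was thus lowest at 0 h and 8 h, which did not differ beyond counting error, and highest at 24 h. In bulk RNA, more VCAN-expressing cells and more VCAN RNA per cell cannot be told apart.

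**Figure D1:**
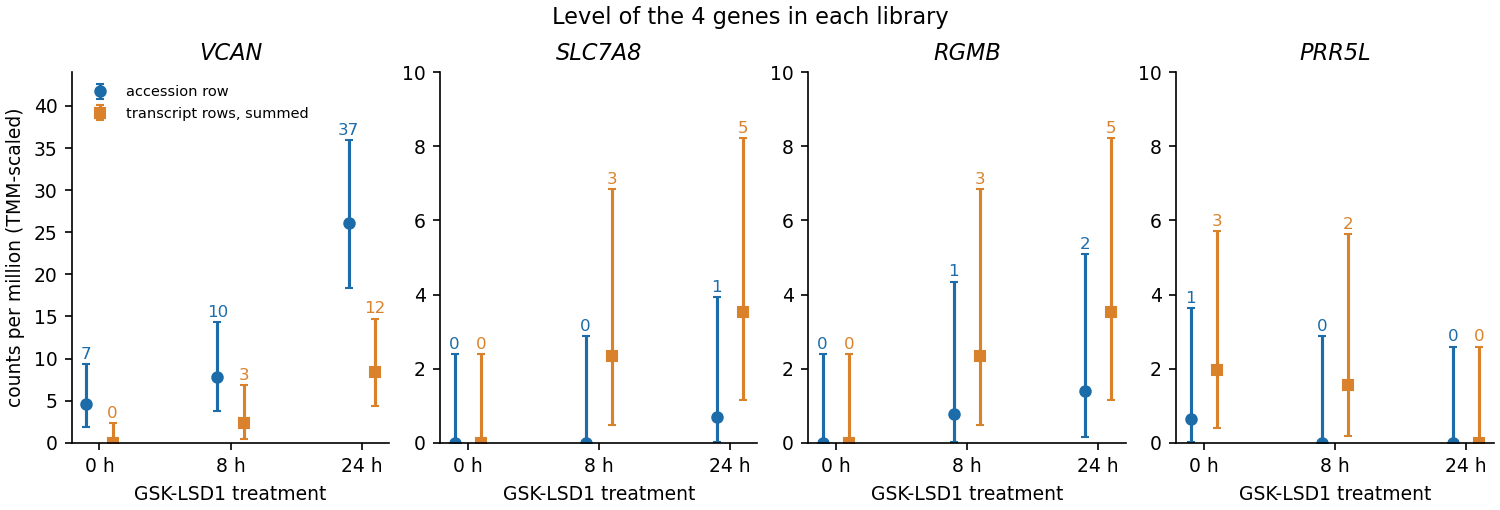
Level of VCAN, SLC7A8, RGMB and PRR5L in TMM-scaled CPM (y axis) in the 0 h, 8 h and 24 h libraries (x axis), as points for the accession row and squares for the summed transcript rows, with bars for 95% Poisson intervals and the raw count above each bar. The VCAN panel has a wider y axis than the others, and only its 24 h values stand clear of the interval at 0 h.

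Against all features, VCAN was far from the middle at 24 h. Of the 4 accession rows, only VCAN was among the 9609 tested features, those that reached 10 counts in any library, for which a log2 fold change with a prior count of 2 was computed. VCAN had a value of 0.63 at 8 h, 2.20 at 24 h and 1.57 from 8 h to 24 h, where the medians of all features were -0.01, -0.01 and 0.00. At 24 h against 0 h, 59 of the 9609 features (0.614%), VCAN included, had a value as high. From 8 h to 24 h this number was 62 (0.645%), and at 8 h it was 1052 (10.9%). VCAN, the only accession row of the 4 that had such a value, exceeded a log2 fold change of 1 between 0 h and 24 h. This mark was passed upward by 6.19% of all features. VCAN also exceeded it from 8 h to 24 h, where 4.03% passed it. Its counting interval lay above 0 in the same comparisons, as did that of 13% and 4.87% of features. At 8 h against 0 h VCAN passed neither mark, which 4.51% and 11.7% of features did.

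**Figure D2:**
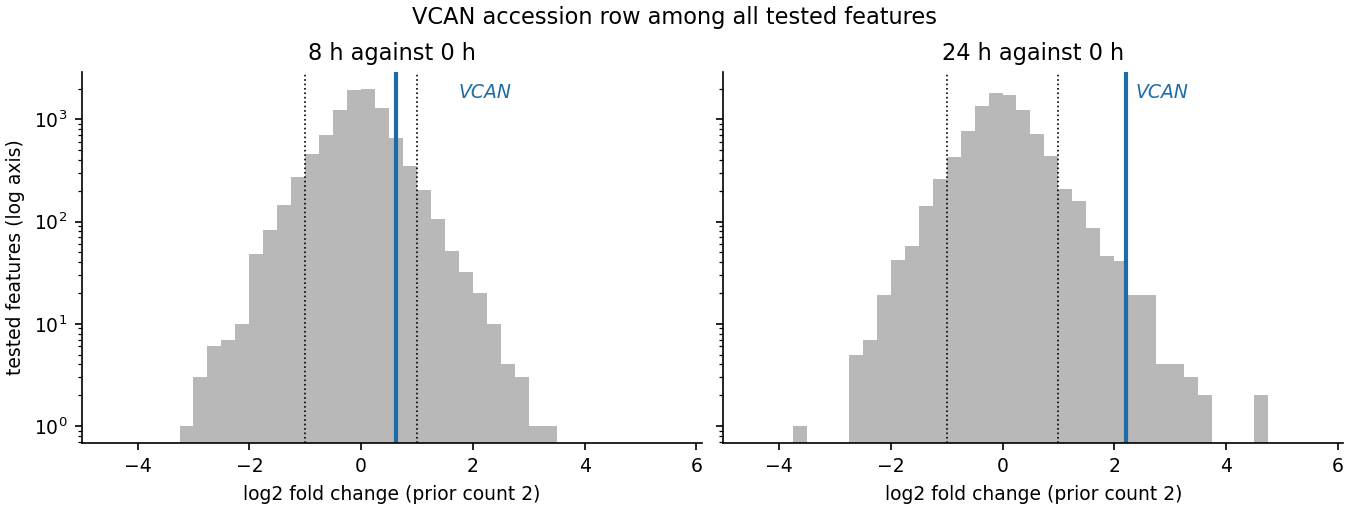
Distribution of the log2 fold change with a prior count of 2 (x axis) over the 9609 tested features (number of features, log y axis), at 8 h and at 24 h against 0 h. The blue line is the VCAN accession row, at 0.63 and 2.20, and the dotted lines mark -1 and 1.

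VCAN splicing includes or skips large internal exons that encode the regions to which chondroitin sulfate chains are attached. In GENCODE, an exon of 2961 bases (chr5:83519349-83522309) was present in 3 of the 7 coding transcripts, and an exon of 5262 bases (chr5:83537007-83542268) in 2. The 5 VCAN transcript rows together had 0 counts in the 0 h library, 3 in the 8 h and 12 in the 24 h library. This was 0, 2.34 and 8.45 CPM, and the interval at 24 h (4.37 to 14.8 CPM) lay above that of the 0 counts at 0 h, which reached 2.40 CPM. The VCAN transcript rows were thus higher at 24 h than at 0 h beyond counting error, with a conditional 95% counting interval of the log2 ratio that began at 1.59. From 8 h to 24 h their log2 ratio was 1.85 with an interval of -0.04 to 4.32.

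Most of these counts came from a single row. ENST00000513016.5, a VCAN transcript of 8 exons without a defined coding sequence, held 12 of the 15 counts, with 0 at 0 h, 2 at 8 h and 10 at 24 h. It was also the longest, with 8483 of the 11093 exon bases of the VCAN transcript rows. The remaining counts were single ones in 3 rows, ENST00000503923.1 at 8 h and ENST00000505615.1 and ENST00000507162.1 at 24 h. ENST00000513016.5 begins inside the intron before the 5262-base exon, with a stretch of 1393 bases (chr5:83535614-83537006) that no other annotated exon covers, and runs on into that exon. The stretch is intronic in 6 of the 7 coding transcripts. It makes up 1393 of the 8483 bases of the transcript, and the counts do not tell where in the transcript the reads lay. The junction of stretch and exon is shown because it separates the transcript from the coding ones. It is chr5:83536947-83537066 of hg38, plus strand, with the coding exon in capitals and the intronic stretch in lower case.
VCAN: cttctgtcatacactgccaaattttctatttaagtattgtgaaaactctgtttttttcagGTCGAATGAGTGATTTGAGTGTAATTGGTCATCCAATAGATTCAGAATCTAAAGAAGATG

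With accession and transcript rows added up, the VCAN sums were 7, 13 and 49 in time order. The log2 ratio of this sum was 2.92 (1.77 to 4.31) at 24 h against 0 h and 1.16 (-0.28 to 2.72) at 8 h. VCAN-AS1, an antisense neighbour, had 0, 1 and 1 counts over 2 rows. The strand setting of the counting was not given in the sources used here. Reads in bases that exons of VCAN and VCAN-AS1 share, if any, therefore cannot be told apart by strand.

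**Figure D3:**
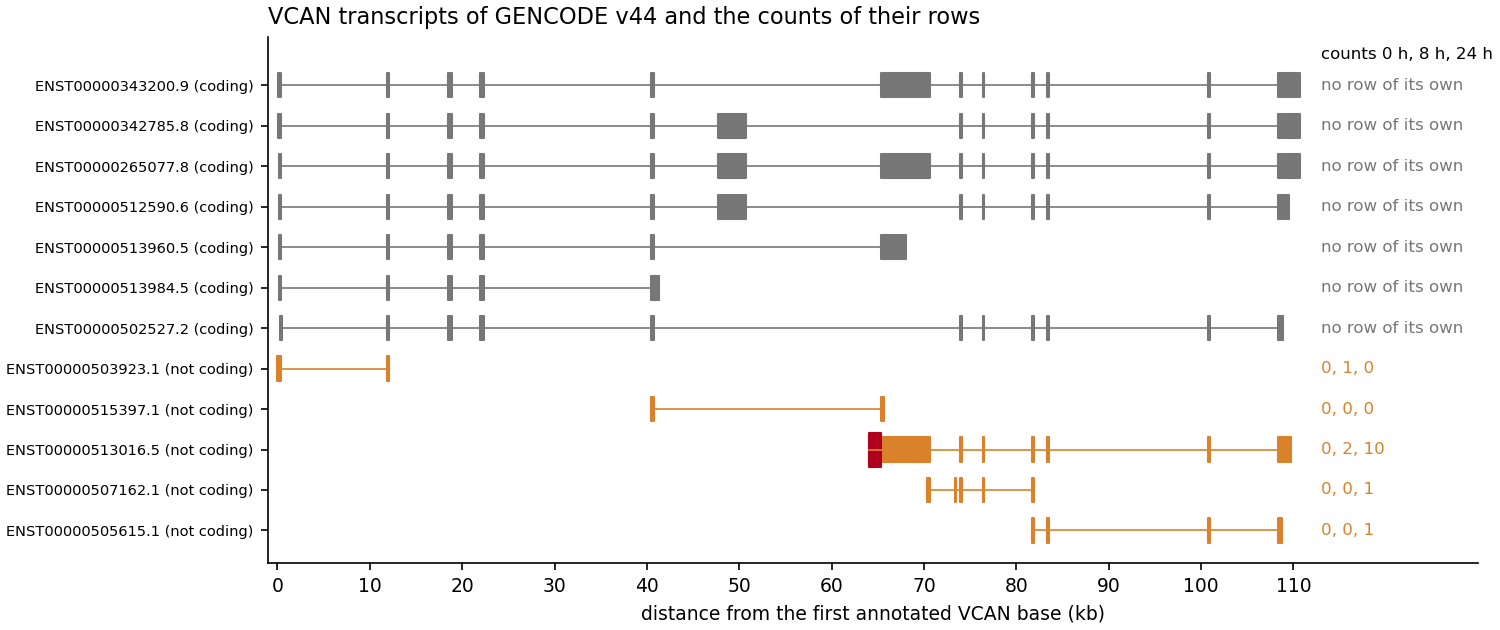
Exons (boxes) and introns (lines) of the 12 VCAN transcripts in GENCODE v44, by distance from the first annotated base of the gene in kb (x axis), with coding transcripts in grey and the 5 transcripts that have a row in orange. The red box is the 1393-base stretch of ENST00000513016.5 outside all other exons, and the counts at right show that its row held 0, 2 and 10.

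Among transcript rows that had a GENCODE gene name and reached 50 counts in any library, 246 could be compared with VCAN over the 3 libraries. Accession rows, the kind of row VCAN itself has, carry no gene name in the table and were not ranked. The closest pair of log2 fold changes among the 246 was that of a FAM20C transcript, ENST00000471328.1, at a Euclidean distance of 0.41. It had 13, 24 and 60 counts, and log2 fold changes of 1.03 at 8 h and 2.14 at 24 h. FAM20C encodes a secretory pathway kinase. The next was the lncRNA ENST00000420548.1 of ENSG00000225107, at a distance of 0.75, with 20, 26 and 54 counts and log2 fold changes of 0.59 and 1.45. The accession row of the monocytic marker ITGAM, noticed after its values were seen, was nearer to VCAN than these transcripts, with log2 fold changes of 0.71 and 2.05.

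SLC7A8, the amino acid exchanger subunit, lies on the minus strand of chromosome 14 (chr14:23125295-23183674) and has 7 coding transcripts. Its accession row was empty at 0 h and 8 h (0 counts) and had 1 count at 24 h, so no ratio was taken. The 95% Poisson interval of 0 counts reached 2.40 CPM at 0 h and 2.88 CPM at 8 h, and the interval of the single count at 24 h reached 3.92 CPM. Any SLC7A8 accession signal was thus below what this depth could separate between libraries.

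The 4 SLC7A8 transcript rows, 3 of them retained introns, summed to 0, 3 and 5 counts. ENST00000397310.6, at the 3′ end of the gene (chr14:23125297-23130143), had 0, 2 and 2 counts, and ENST00000528806.5 had 0, 1 and 1. The other rows, ENST00000528186.1 and ENST00000532568.1, had 1 count each at 24 h. At 24 h against 0 h the conditional counting interval of their log2 ratio began at -0.01, so a difference was not detectable in the SLC7A8 transcript rows alone. With the accession row added, SLC7A8 had 0, 3 and 6 counts, and the interval began at 0.35. The SLC7A8 sum was thus higher at 24 h by its counting interval, but neither kind of row was higher by itself, and the call rests on the 1 count of the accession row. As levels, the sum at 24 h (1.55 to 9.20 CPM) and at 0 h (up to 2.40 CPM) had Poisson intervals that overlapped. From 8 h to 24 h the log2 ratio of the transcript rows was 0.59 (-1.77 to 3.27).

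RGMB, the BMP co-receptor, lies on the plus strand of chromosome 5 (chr5:98768650-98798643) and has 2 coding transcripts. Its accession row had 0, 1 and 2 counts in time order, which was too few for a ratio. Its 5 transcript rows summed to 0, 3 and 5 counts, the same totals as for SLC7A8. The RGMB transcript rows alone therefore also had an interval that began at -0.01 at 24 h. Added to the accession row, RGMB had 0, 4 and 7 counts. At 24 h the interval of the log2 ratio of this sum to 0 h began at 0.64, while at 8 h it began at -0.34. The RGMB sum was thus higher at 24 h by its counting interval, but neither kind of row was higher by itself. As levels, the sum at 24 h (1.98 to 10.2 CPM) and at 0 h had Poisson intervals that overlapped, and the log2 ratio from 8 h to 24 h was 0.66 (-1.32 to 2.88).

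As for VCAN, a single row carried most of the RGMB transcript counts. ENST00000434027.2, a retained intron transcript of 4 exons, held 7 of the 8 counts, with 0 at 0 h, 3 at 8 h and 4 at 24 h. It was also the longest, with 2513 of the 4566 exon bases of the RGMB transcript rows. ENST00000507054.1 had the remaining count at 24 h. ENST00000434027.2 reads on past the end of a 509-base coding exon into a stretch of 1097 bases (chr5:98780089-98781185) that is intronic in both coding transcripts and that no other annotated exon covers. Here too, the counts do not tell where in the transcript the reads lay. The exon end is shown because it is where the RGMB transcripts part. It is chr5:98780029-98780148 of hg38, plus strand, with the coding exon in capitals and the retained intron in lower case.
RGMB: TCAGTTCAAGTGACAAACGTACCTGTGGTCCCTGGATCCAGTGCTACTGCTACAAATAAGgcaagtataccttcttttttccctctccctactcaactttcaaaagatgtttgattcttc

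A second RGMB stretch of 131 bases (chr5:98770467-98770597) in ENST00000434027.2 is also covered by an exon of the antisense gene RGMB-AS1. The 8 rows of RGMB-AS1 had 0 counts in each library.

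PRR5L, the mTOR complex 2 component, lies on the plus strand of chromosome 11 (chr11:36296288-36465204) and has 11 coding transcripts. Its accession row held 1 count at 0 h and 0 at 8 h and 24 h. Of its 9 transcript rows, 3 had a count, and they summed to 3, 2 and 0. PRR5L was thus the only member of the 4 without a count at 24 h in the rows looked up here. The interval of 0 counts reached 2.60 CPM there.

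The PRR5L transcripts with counts all lay at the 3′ end of the gene, from ENST00000525672.1 (chr11:36453950-36462781) with 2, 0 and 0 counts to ENST00000530627.1 (chr11:36455289-36463676) with 1, 1 and 0. ENST00000529020.1 had a single count at 8 h. With both kinds of row added, PRR5L had 4, 2 and 0 counts. The log2 ratio at 8 h against 0 h was -0.74 with an interval of -4.20 to 2.07. At 24 h against 0 h the interval reached up to 0.71, so no difference in PRR5L was detectable at this depth.

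A low accession count did not mean that a gene was silent in these cells. Both examples were chosen after their values were seen. CD33, a myeloid surface marker, was listed at 0 in its accession row in each library, while its transcript rows summed to 67, 44 and 45 counts. SLC3A2, the heavy chain that carries SLC7A8 to the cell surface, likewise had 0, 1 and 1 counts under its accession and 28, 29 and 28 in its transcript rows. How reads shared by several transcripts were handled was not given in the sources used here. Among the 127951 transcript rows found in GENCODE, 4.57% of those with no exon base of their own had a count and they held 5.16% of the counts of these rows, against 34.3% and 93.6% for rows with at least 50 own bases. The counts of SLC7A8, RGMB and PRR5L, and those of VCAN, are given as levels of these rows. How far they stand for the whole gene was not tested.

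Genes that work with each member were described next. Whether a counting interval excludes 0 depends on the number of counts. The shares of all features given beside the lists were not matched for counts. Of 14 genes for versican's partners and the hyaluronan matrix, 5 were tested, and none of them passed a log2 fold change of 1 or -1 in any comparison. The hyaluronan receptor CD44 had 413, 433 and 485 counts and rose at 24 h by its counting interval, with a log2 ratio of 0.35 (0.15 to 0.54). SELPLG, a selectin ligand, had 43, 45 and 62 counts, and its log2 ratio was 0.64 (0.06 to 1.24). TLR2, a receptor to which versican can bind, had 183, 104 and 123 counts and fell, with a log2 ratio of -0.46 (-0.80 to -0.12). These were the 2 higher and 1 lower by interval at 24 h, where 13% of all features were higher and 12.6% lower. At 8 h CD44 was higher and TLR2 was lower, where 11.7% of all features were higher and 9.71% lower. ITGB1 (345, 268 and 311 counts) and the versican-cleaving protease ADAMTS1 (26, 16 and 30) had intervals that included 0. The list median was -0.10 at 8 h and 0.30 at 24 h. The other lecticans, ACAN, BCAN and NCAN, had at most 1 count in a library.

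Of 10 amino acid transporter genes around SLC7A8, 4 were tested. SLC7A11, the cystine/glutamate exchanger subunit, had 254, 78 and 64 counts. It fell at 8 h with a log2 ratio of -1.44 (-1.83 to -1.07) and at 24 h with -1.88 (-2.29 to -1.47). SLC7A2, a cationic amino acid transporter that needs no heavy chain, had 31, 11 and 46 counts, with a log2 ratio of -1.23 (-2.37 to -0.20) at 8 h and a rise from 8 h to 24 h of 1.91 (0.94 to 3.01). At 8 h these were 2 of 4 past -1, a mark that 6.02% of all features passed, and at 24 h SLC7A11 was 1 of 4, where 5.58% passed. SLC7A2 was 1 of 4 past 1 from 8 h to 24 h, where 4.03% passed. SLC7A1, also a cationic transporter, had 1313, 1046 and 1086 counts, and at 24 h its log2 ratio was -0.16 (-0.28 to -0.04). SLC7A5, the other large neutral amino acid exchanger subunit, had 32, 30 and 47 counts, and at 24 h its log2 ratio was 0.67 (-0.01 to 1.36). By interval, SLC7A11 and SLC7A2 were lower at 8 h, and SLC7A11 and SLC7A1 at 24 h. These were 2 of 4 each time, where 9.71% and 12.6% of all features were lower. From 8 h to 24 h SLC7A2 was 1 of 4 higher by interval, where 4.87% of all features were. The list median was -0.59 at 8 h and 0.24 at 24 h.

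Of 16 genes of the RGM and BMP pathway, 14 had a row and 6 were tested. The ligand BMP2 had 37, 61 and 52 counts and rose at 8 h, with a log2 ratio of 0.98 (0.37 to 1.61). Its receptors BMPR1A (40, 44 and 57 counts) and BMPR2 (210, 200 and 226) had log2 ratios at 24 h of 0.62 (0.02 to 1.25) and 0.22 (-0.06 to 0.50). The signal transducer SMAD5 had 218, 118 and 162 counts and fell at 8 h, with a log2 ratio of -0.62 (-0.96 to -0.29), and at 24 h, with -0.32 (-0.62 to -0.02). SMAD4 had 106, 66 and 78 counts and intervals that included 0. ID1, a target gene of BMP signalling, had 56, 66 and 12 counts, and its log2 ratio was -2.11 (-3.14 to -1.19) at 24 h against 0 h. ID1 was the only tested gene of the list past -1 at 24 h against 0 h, a mark that 5.58% of all features passed. It was also the only one from 8 h to 24 h, where 1.97% of all features passed and 5.58% had an interval below 0. By interval, BMP2 was 1 of 6 higher and SMAD5 1 of 6 lower at 8 h (11.7% and 9.71% of all features), and at 24 h BMPR1A was higher and SMAD5 and ID1 were lower (13% and 12.6%). NEO1, the receptor that binds RGM proteins, had 5, 3 and 8 counts and was below the filter. The list median was 0.29 at 8 h and -0.05 at 24 h.

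Of 12 genes of the mTOR complexes and their targets, 5 were tested and none passed 1 or -1. RICTOR, to which PRR5L binds, had 324, 250 and 259 counts, and at 24 h its log2 ratio was -0.21 (-0.45 to 0.03). The kinase MTOR had 476, 426 and 465 counts, and MAPKAP1, the SIN1 subunit, had 62, 51 and 56, both with intervals that included 0 in each comparison. DEPTOR, an inhibitor of the complexes, had 86, 76 and 115 counts and rose at 24 h with a log2 ratio of 0.53 (0.12 to 0.95). PRKCA, a kinase that mTOR complex 2 phosphorylates, had 363, 264 and 433 counts and rose with 0.37 (0.16 to 0.57). These were 2 of 5 higher by interval at 24 h, as were 13% of all features. From 8 h to 24 h DEPTOR, with 0.45 (0.02 to 0.89), and PRKCA, with 0.56 (0.34 to 0.79), were also higher by interval. This was again 2 of 5, where 4.87% of all features were higher. PRR5, the paralog of PRR5L, had 1, 0 and 0 counts under its accession and 5, 5 and 3 in its transcript rows. The list median was -0.02 at 8 h and 0.08 at 24 h.

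**Figure D4:**
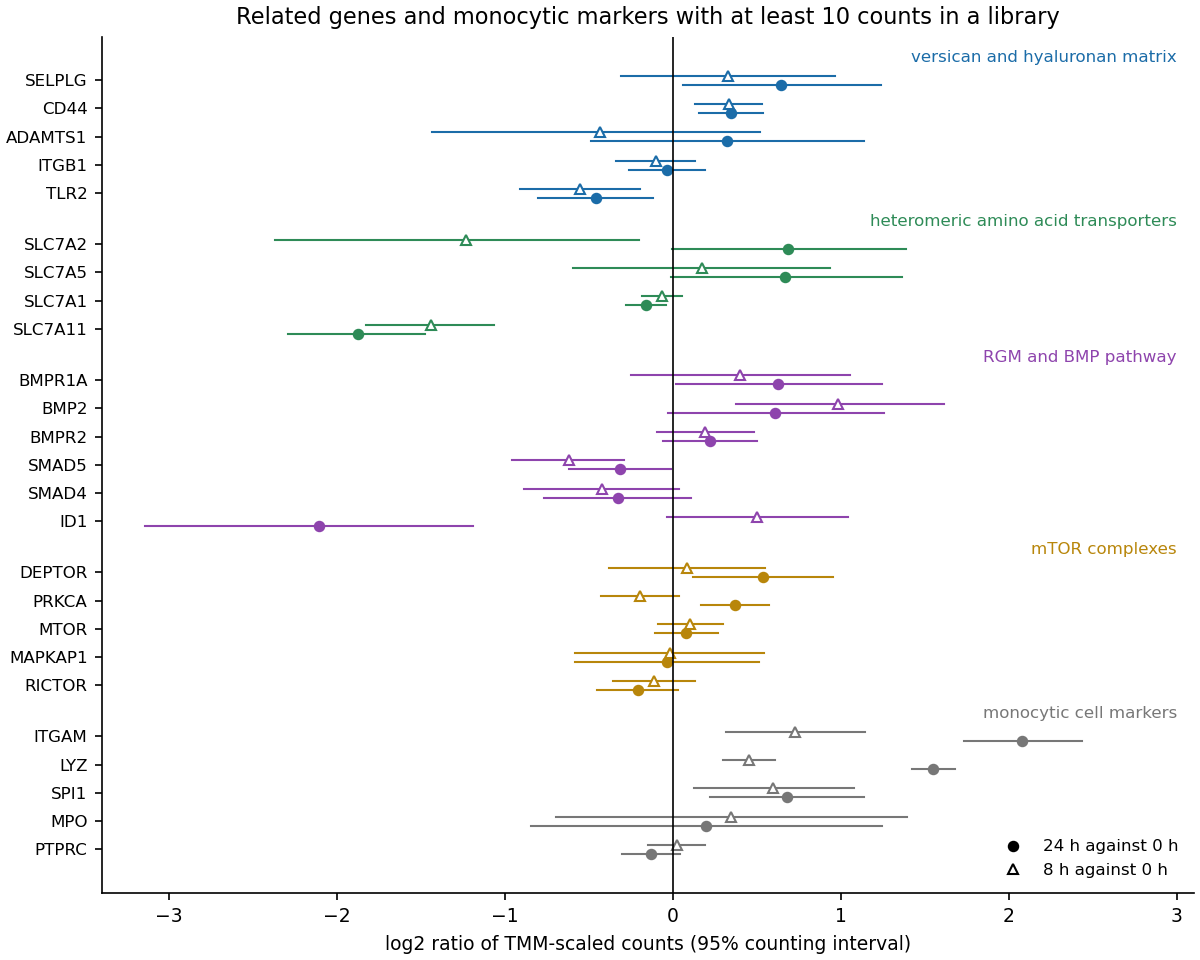
Log2 ratio to 0 h of TMM-scaled counts (x axis) at 24 h (filled circles) and 8 h (open triangles) for the tested genes of the lists (y axis), coloured by list, with lines for 95% counting intervals. SLC7A11 and ID1 lie furthest to the left at 24 h, and ITGAM and LYZ furthest to the right.

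Monocytic markers were present in these libraries and the sum of their accession rows, like VCAN, was highest at 24 h. The accession rows of the 9 markers summed to 1445, 1501 and 2761 counts, or 941, 1172 and 1944 CPM. LYZ was the most abundant with 655, 747 and 1773 counts, and its log2 ratio at 24 h was 1.55 (1.42 to 1.68). ITGAM had 87, 120 and 339 counts, and its log2 ratio was 2.08 (1.73 to 2.43). SPI1, the gene of the myeloid factor PU.1, had 69, 87 and 102 counts, with a log2 ratio of 0.68 (0.22 to 1.14). MPO (17, 18 and 18 counts) and PTPRC (617, 522 and 521) had intervals that included 0. Of the 5 tested markers, LYZ and ITGAM exceeded a log2 fold change of 1 by 24 h, where 6.19% of all features did, and none did by 8 h, where 4.51% did. By interval, LYZ, ITGAM and SPI1 were higher already at 8 h, with log2 ratios of 0.45 (0.30 to 0.61), 0.73 (0.32 to 1.14) and 0.60 (0.12 to 1.07). These were 3 of 5 at 8 h and again at 24 h, where 11.7% and 13% of all features, not matched for counts, were higher. The list median was 0.45 at 8 h and 0.66 at 24 h. The accession rows of CD33 and CSF1R were listed at 0 in each library, but the transcript rows of CD33 had 67, 44 and 45 counts and those of CSF1R had 9, 3 and 3. CD68 had 0, 2 and 2 counts and CD14 had 0, 5 and 6. The part of this shift in the VCAN values was not tested. The 7 markers of other cell types summed to 0, 4 and 2 counts, all from COL1A1, and HBB, CD3E, MS4A1, EPCAM, ALB and DCN were at 0.

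Promoters of the 4 genes were searched on both strands for short motifs of myeloid factors, in windows from 250 bases before to 50 after each RefSeq start (GRCh38.p14). The single VCAN window held none of GAGGAA (PU.1), TGANTCA (AP-1), TTGCNNAA (C/EBP) or AAATCA (GFI1). Of 3 RGMB windows, 1 held the AP-1 motif and 2 the PU.1 motif. Of 3 PRR5L windows, 2 held the GFI1 motif and 1 the PU.1 motif. Of 4 SLC7A8 windows, 2 that overlap held the AP-1 motif and 1 the C/EBP motif. Over 35116 promoters of this length, the PU.1 motif was in 27.9%, GFI1 in 13.2%, C/EBP in 10.5% and AP-1 in 7.71%. A match describes letters in a window and not binding.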

How the data were processed

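The submitters' processing notes name fastp, STAR and the build hg38, and the authors deposited raw whole-number counts for each feature. Which tool counted the reads, on which annotation and strand, and what was done with shared reads is not given in the sources used here. Samples were grouped by their labels. Transcript rows were matched by identifier to GENCODE v44 (127951 of 140222). UniProt accessions of the listed genes come from UniProt naming as known, not from the files, and were not checked here. The members and lists were chosen with earlier results of these data known. Genes named are the members, list members that reached 10 counts in any library, and the 2 transcript rows with a GENCODE gene name closest to VCAN (accession rows were not ranked). Other names were chosen after their values were seen. TMM factors, computed on the tested features (10 or more counts in any library), came from edgeR 4.0.16 in R 4.3.3, and alternative size factors from DESeq2 1.42.0. Ratios used no prior count, with exact Clopper-Pearson 95% intervals conditional on the summed count (scipy 1.17.1, Python 3.11.15). No ratio was taken when both counts were 3 or fewer. For ratios to a count of 0 the finite end of the same conditional interval is given, added after the counts were seen, and 3 counts stood in for 0 only in the check of scalings. Intervals of single levels are exact Poisson intervals. Log2 fold changes over all tested features used a prior count of 2. The fold change and ratio interval steps were tested on simulated Poisson counts for features with 10 or more counts in any library. Rows below that filter and variation between libraries beyond counting error were not covered. Alternatives were other scalings, prior counts, filters, thresholds and row sums.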

Additional observations from a re-analysis of the deposited data

How the results depend on the processing

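The log2 ratios of the VCAN accession row were recomputed with size factors of DESeq2, total counts (also after removing mitochondrial genes), prior counts of 0.5, 2 and 5, and the sum of accession and transcript rows. For the transcript rows and row sums of the 4 genes that had a ratio, only DESeq2 size factors and total counts were tried. For ratios without a count of 0, all 39 alternative values had the direction of the reported ratio and lay within its counting interval. These intervals are wide beside the small changes that the scalings made. For the scalings, lying within them was therefore near certain in advance and is a weak check. Ratios to a count of 0 were recomputed only with 3 counts in its place, which says nothing of their stability. No accession row with an isoform suffix was found for the 4 genes, so that sum gave no value. The numbers of features past 1 or -1 depended on the filter and prior. Higher and lower were 433 and 578 at 8 h, 595 and 536 at 24 h, and 387 and 189 from 8 h to 24 h. With at least 50 counts they were 88 and 60, 132 and 76, and 24 and 5. Without a filter they were 3277 and 2319, 2474 and 1999, and 1865 and 2778. With a prior of 5 they were 255 and 294 at 8 h, 294 lower at 24 h, and 156 and 78 from 8 h to 24 h, and with 0.5 there were 293 lower from 8 h to 24 h. At a threshold of 2 they were 39 and 29, 94 and 32, and 20 and 5. No paired analysis was possible because each time point has 1 library. With 1310912 to 1475938 counts a library, 1 count was 0.651 to 0.781 CPM, which limits what can be said of SLC7A8, RGMB and PRR5L.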
